A study of Mus musculus with 36 samples.

Results

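LIM homeobox genes encode transcription factors, and 9 of the 22761 genes in the normalised expression table were followed here through every group of the study: *Lmx1a*, *Lmx1b*, *Lhx1*, *Lhx2*, *Lhx5*, *Lhx6*, *Lhx8*, *Lhx9* and *Isl1*. They were taken by gene name. The list was chosen on measured values, the differences between embryonic stem cell-derived cells and their ex-fetu counterparts, in which *Lmx1a* and *Lhx2* were among the genes that stood highest in the derived cells, so the values of the members in those contrasts are given as a description with no test. Among ex-fetu cells the members were tested, but the values of those groups were known too when the list was made, so the p-values there are not independent of the choice. The remaining genes of the family in the table, *Lhx3*, *Lhx4* and *Isl2*, are given beside them.

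A LIM homeodomain protein carries a pair of zinc-binding LIM domains, which bind other proteins, and a homeodomain, which binds DNA. The LIM domains are bridged by the adaptor proteins Ldb1 and Ldb2, which are held stable by single-stranded DNA binding proteins (Ssbp genes), whereas the Lmo proteins consist of little but LIM domains and compete for the same adaptors. In the mouse kidney *Lhx1* is needed for the nephric duct and its branch, the ureteric bud, and again in the vesicles that form nephrons, and *Lmx1b* is best known from podocytes and from the dorsal limb. The other members are studied mainly outside the kidney: *Lmx1a* in the roof plate and the midbrain, *Lhx2* in the forebrain, eye and limb, *Lhx5*, *Lhx6* and *Lhx8* in the brain, *Lhx9* in the gonad, and *Isl1* in motor neurons, heart and hindlimb.

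The samples were sorted progenitors of the 3 lineages of the early mouse kidney, from embryos or made in culture, with 4 libraries in each of 9 groups. Cells of the ureteric bud (UB), progenitors of the nephron (NP) and progenitors of the stroma (SP) came from CD1 kidneys at E11.5 and at E12.5, and a sample pooled the kidneys of all embryos of a mouse. Their counterparts came from mouse embryonic stem cells (mESC), a sample being the embryoid bodies of a single differentiation batch: iNP and iSP cells from E14 mESC, and engineered ureteric buds (eUB, titled iUB by the submitters) from Sox9-mCherry-mESC. The study's account of its reporter lines elsewhere names the line Sox8-mCherry, so which reporter the eUB carried is in conflict. The eUB therefore differ from the iNP and iSP cells in their parent line as well as in their fate, and each lineage was made from a single line. NP and iNP cells were sorted as ITGA8 high and PDGFRA low, SP and iSP cells as ITGA8 low and PDGFRA high, ex-fetu UB cells on RET and EpCAM, and eUB cells on EpCAM and the reporter. Since these are bulk samples, fewer cells of a type and less RNA per cell cannot be told apart.

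The libraries held 13004352 to 52535113 reads on genes, and 3 reads, the least taken here as detection, were worth 0.0605 to 0.223 normalised CPM (reads of a gene scaled to a common library size). The ages of the ex-fetu UB samples are in conflict in the labels: in the samples titled E11.5 the cell source reads E12.5, and the reverse holds for the others. Sample titles, which match the cell type field, were used. If the cell source field were right, every UB change with age below would turn around, the contrasts of UB with NP and SP and of eUB with UB would rest on UB of the other age, and the terms that compare the UB age effect with that of NP or SP would take other values. Summed markers followed the labels: summed UB markers were 1894 to 3587 in ex-fetu UB and 2776 to 3007 in eUB against 302 or less elsewhere, summed NP markers were 1494 to 2337 in NP and 632 to 1036 in iNP, and summed SP markers were 1688 to 3854 in SP and 886 to 996 in iSP. *Foxd1*, the defining gene of renal stroma, stood at 265 to 758 in SP but at 11.4 to 19.2 in iSP, which overlapped eUB (14.99 to 29.5) and lay below ex-fetu NP (44.3 to 92.9), so this marker did not follow the label in derived cells. *Aldh1a2* and *Tcf21* did not either, with means of 176 and 18.6 in iSP against 281 and 37.2 in iNP. *Meis1* (282 and 160) and *Ntn1* (48.8 and 14.4) were higher in iSP than in iNP. The largest part of the iSP sum was *Pdgfra*, itself used in the sort (410 and 31.6). Replicate 1 of E12.5 UB stood apart, with summed NP markers of 470 against 55.5 to 86.8 in the other 3 libraries and summed SP markers of 240 against 15.5 to 33.03. Replicate 1 of E12.5 SP had summed SP markers of 2232 against 3607 to 3854 in the others of its group, and replicate 1 of E12.5 NP had summed NP markers of 1494 against 2115 to 2337. Members' differences called in a contrast with any of these libraries, and counts that moved, are given without them too. Macrophage markers summed to 29.4 to 62.5 in ex-fetu UB and to 1.63 or less in every other group, eUB included.

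The promoters of the genes that led the family in a group are shown because they are where these factors are themselves switched on. Each covers 250 bases before and 50 after a RefSeq start site on GRCm38.p6, read 5′ to 3′ on the strand of the gene, with every CpG dinucleotide in capitals. They lie at chr1:167689308-167689607 (+) for *Lmx1a*, chr2:33641049-33641348 (−) for *Lmx1b*, chr11:84525485-84525784 (−) for *Lhx1*, chr2:38339031-38339330 (+) for *Lhx2* and chr13:116309639-116309938 (−) for *Isl1*.
Lmx1a: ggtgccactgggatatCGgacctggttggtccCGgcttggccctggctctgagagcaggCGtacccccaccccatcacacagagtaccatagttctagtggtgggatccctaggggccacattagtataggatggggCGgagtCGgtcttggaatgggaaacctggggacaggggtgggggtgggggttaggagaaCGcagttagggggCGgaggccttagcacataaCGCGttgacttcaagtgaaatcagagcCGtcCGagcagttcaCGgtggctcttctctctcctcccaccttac
Lmx1b: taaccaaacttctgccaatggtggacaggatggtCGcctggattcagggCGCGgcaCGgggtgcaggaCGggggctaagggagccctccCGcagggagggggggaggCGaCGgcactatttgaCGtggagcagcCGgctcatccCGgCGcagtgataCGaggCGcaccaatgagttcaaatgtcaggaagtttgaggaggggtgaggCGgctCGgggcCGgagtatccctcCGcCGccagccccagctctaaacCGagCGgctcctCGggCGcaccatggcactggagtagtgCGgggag
Lhx1: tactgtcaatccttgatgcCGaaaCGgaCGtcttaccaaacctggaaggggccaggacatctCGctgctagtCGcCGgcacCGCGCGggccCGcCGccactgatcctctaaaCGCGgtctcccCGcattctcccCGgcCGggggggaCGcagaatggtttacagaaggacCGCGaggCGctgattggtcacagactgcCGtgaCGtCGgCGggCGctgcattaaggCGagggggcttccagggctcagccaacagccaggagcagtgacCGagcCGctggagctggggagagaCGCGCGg
Lhx2: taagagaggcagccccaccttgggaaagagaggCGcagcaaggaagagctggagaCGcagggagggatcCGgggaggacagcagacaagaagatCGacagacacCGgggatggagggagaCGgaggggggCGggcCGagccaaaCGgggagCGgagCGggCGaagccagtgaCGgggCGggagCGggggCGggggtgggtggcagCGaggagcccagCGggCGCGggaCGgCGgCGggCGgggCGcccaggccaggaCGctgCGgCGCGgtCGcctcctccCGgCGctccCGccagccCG
Isl1: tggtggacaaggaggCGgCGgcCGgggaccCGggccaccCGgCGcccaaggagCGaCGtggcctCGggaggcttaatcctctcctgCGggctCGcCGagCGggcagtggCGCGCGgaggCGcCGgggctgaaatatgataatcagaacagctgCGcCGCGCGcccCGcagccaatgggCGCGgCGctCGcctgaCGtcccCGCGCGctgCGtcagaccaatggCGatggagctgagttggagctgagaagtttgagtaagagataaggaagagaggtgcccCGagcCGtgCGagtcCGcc

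The promoter of *Lmx1a* held 12 CpG dinucleotides, that of *Lmx1b* 24, that of *Lhx1* 31, that of *Lhx2* 34 and that of *Isl1* 37, against a median of 7 over all 32851 promoters of the table. Of the 12 family genes 11 had a promoter there. On either strand the letters CCAAT, which 37.4% of all promoters hold, began at −68 in *Lhx1*, at −80 and −34 in *Isl1* and at −236 and −84 in *Lmx1b*, counted from the start site. The homeodomain core TAATTA (5.29% of promoters), the TATA box TATAAA (13.6%), the TCF/LEF motif CTTTGA (16.003%) and the nuclear receptor motif AGGTCA (16.3%) had no match in these 5 windows, nor did *Lmx1a* and *Lhx2* hold CCAAT. *Lhx1* shares its promoter with the non-coding gene *Lhx1os*, which is read from the opposite strand: of the 300 bases, 225 also lie in the promoter of *Lhx1os*.

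The LIM homeobox gene with the highest group mean per kilobase of exon was not the same in the lineages, nor in derived and ex-fetu cells of a lineage. In ex-fetu cells *Lmx1b* stood out in NP, *Lhx1* in UB of both ages and in E12.5 NP, and *Isl1* in E11.5 SP. In mESC-derived cells *Lmx1a* and *Lhx1* stood out in eUB, *Lhx2* in iSP, and *Lhx1* with *Lhx2* and *Lhx5* in iNP. In normalised CPM, not divided by length, *Lhx1* was above *Lmx1a* in every eUB library but replicate 1. A mean of at least 3 normalised CPM was reached in no ex-fetu group by *Lmx1a*, *Lhx2*, *Lhx5*, *Lhx6*, *Lhx8* or *Lhx9*.

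**Figure D1:**
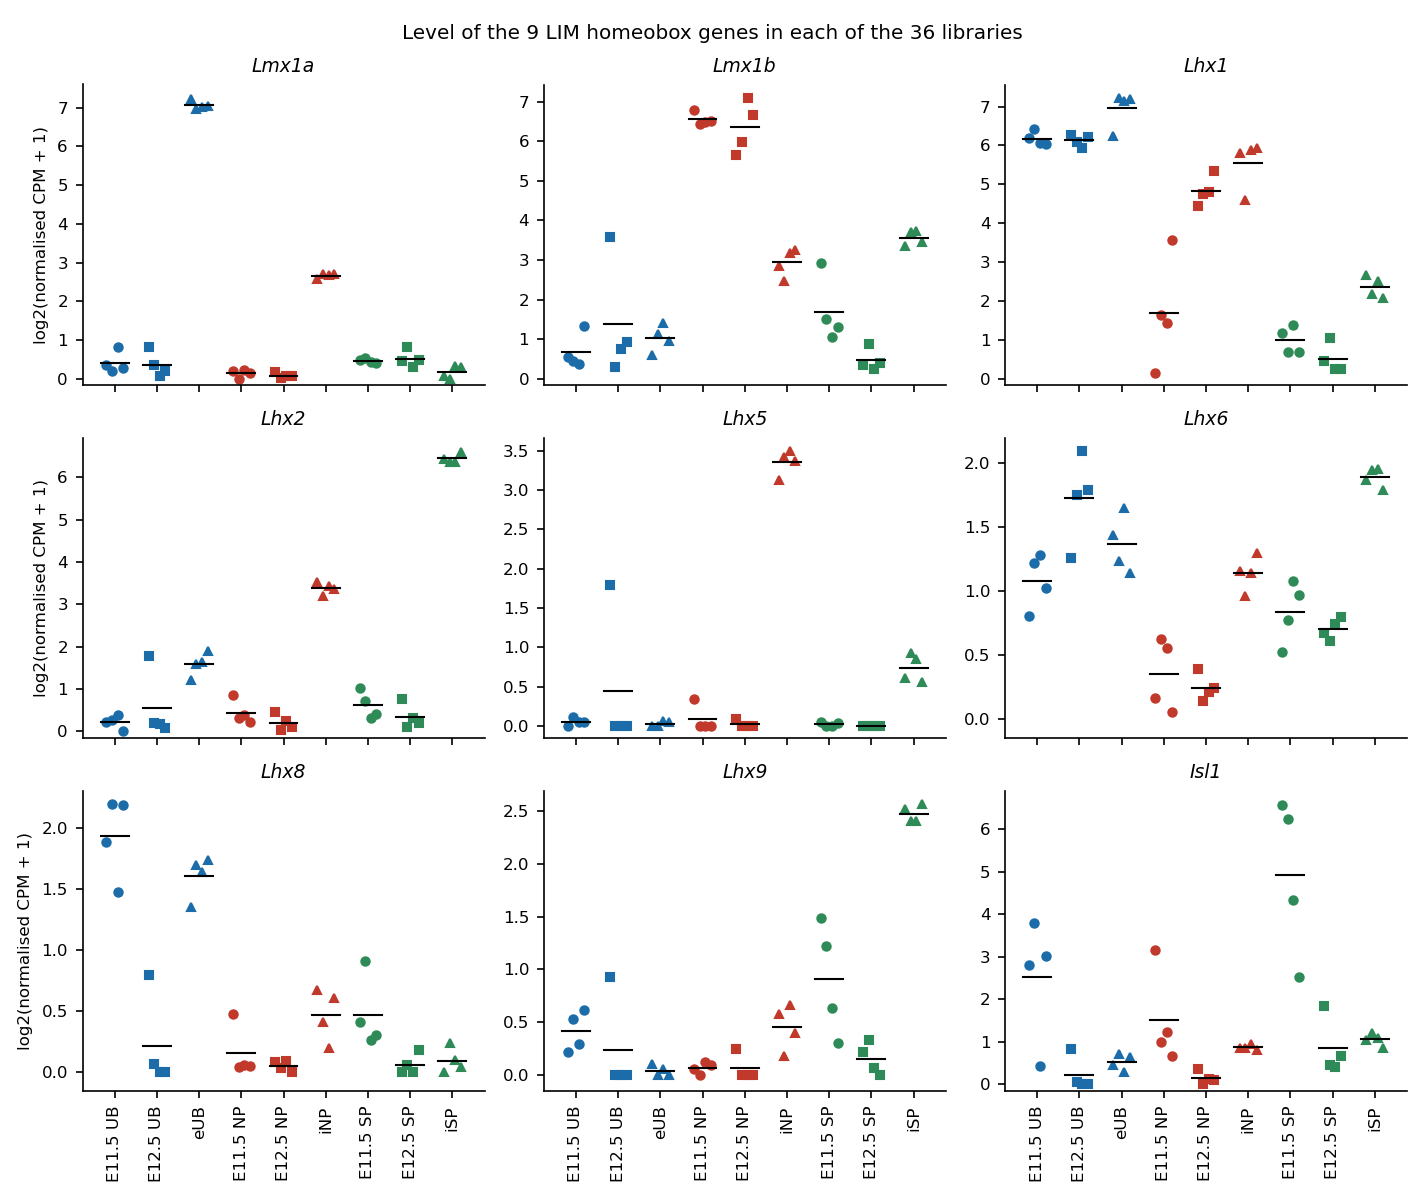
Level of the 9 LIM homeobox genes as log2(normalised CPM + 1) in each of the 36 libraries (points, with a line at the group mean), with the 9 groups along the horizontal axis and a vertical scale of its own for each gene. In normalised CPM, *Lmx1a* reached 125 to 150 in eUB and *Lhx2* 81.5 to 96.5 in iSP, whereas *Lmx1b* was at 49.7 to 135 in ex-fetu NP and *Isl1* spread from 4.73 to 94.7 in E11.5 SP.

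*Lmx1a* (ENSMUSG00000026686; chromosome 1, 167689237 to 167848741, + strand) encodes a factor of the roof plate and of midbrain dopaminergic progenitors. In eUB its 4 libraries were at 150, 125, 129 and 131 normalised CPM, a mean of 134 ± 11.001 (SD, n = 4). In E11.5 UB they were at 0.291, 0.161, 0.755 and 0.213, and in E12.5 UB at 0.778, 0.284, 0.0457 and 0.145. No library of the eUB came near any ex-fetu library, and on the log2(value + 1) scale the difference was 6.65 from E11.5 UB and 6.71 from E12.5 UB. The iNP came next in order, at 4.92, 5.51, 5.42 and 5.51 (5.34 ± 0.280, SD, n = 4), again apart from every ex-fetu library. Ex-fetu NP held 0 to 0.171 at E11.5 and 0.0245 to 0.123 at E12.5. The iSP, at 0 to 0.259, overlapped the ex-fetu groups around them in the order.

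*Lmx1b* (ENSMUSG00000038765; chromosome 2, 33560965 to 33640511, − strand), the close relative of *Lmx1a* and a podocyte and limb factor, was instead highest in ex-fetu NP. In E11.5 NP it was at 110, 85.2, 89.1 and 90.7 (93.7 ± 10.8, SD, n = 4) and in E12.5 NP at 49.7, 62.3, 135 and 100 (86.9 ± 38.8, SD, n = 4). In E11.5 SP it was at 6.64, 1.82, 1.07 and 1.46 and in E12.5 SP at 0.271, 0.826, 0.191 and 0.321. All 8 ex-fetu NP libraries lay above all 8 SP libraries. The difference of NP from SP was 4.86 at E11.5 (SE 0.35, limma adjusted p = 5.6e-06) and 5.88 at E12.5 (SE 0.30) on the log2(value + 1) scale. At E12.5 *Lmx1b* passed the filter through the NP libraries alone, and was not tested when any of these was left out, so that value is a description. Without replicate 1 of E12.5 SP the difference was 5.84. The mESC-derived cells did not keep that order. The iNP were at 6.26, 4.56, 7.996 and 8.56 and the iSP, higher in every library, at 9.23, 11.999, 12.3 and 10.002. Set against ex-fetu cells, iNP were lower by a log2 difference of −3.62 from E11.5 and −3.41 from E12.5 NP, and iSP higher by 1.87 and 3.10 from E11.5 and E12.5 SP.

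With age, the *Lmx1b* difference in NP was −0.21 (limma adjusted p = 0.70), and the 4 libraries of E12.5 NP spread on both sides of those of E11.5. In SP it was −1.23 (SE 0.37), with no overlap between the ages, and did not pass the threshold (limma adjusted p = 0.0716). *Lmx1b* passed the filter there through the E11.5 SP libraries alone, so that value is a description. In UB the gene was low, at 0.452, 0.362, 0.302 and 1.53 at E11.5 and at 10.97, 0.237, 0.686 and 0.918 at E12.5. The value of 10.97 was that of the E12.5 UB library with raised NP markers. UB lay below the mean of NP and SP by −3.45 at E11.5 (SE 0.29, limma adjusted p = 2.2e-07) and −2.01 at E12.5 (SE 0.50, limma adjusted p = 0.0064), and the latter was −2.74 without that library, −2.03 and −2.13 without replicate 1 of E12.5 SP or NP, and did not pass in edgeR's test (adjusted p = 0.394). The UB libraries overlapped those of SP at E11.5 and at E12.5.

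*Lhx1* (ENSMUSG00000018698; chromosome 11, 84518284 to 84525535, − strand) is the member with a long-known part in the kidney, in the duct and in the first nephron epithelium. In E11.5 UB it was at 71.5, 85.2, 65.9 and 64.3 (71.7 ± 9.52, SD, n = 4) and in E12.5 UB at 76.7, 67.6, 60.4 and 73.0 (69.4 ± 7.07, SD, n = 4). The ages overlapped and the difference, −0.04, did not pass the test (limma adjusted p = 0.79). UB lay above the mean of NP and SP by 4.83 at E11.5 (SE 0.43, limma adjusted p = 4.0e-07) and by 3.46 at E12.5 (SE 0.19, limma adjusted p = 1.6e-08), or by 3.41, 3.45 and 3.39 without replicate 1 of E12.5 UB, SP or NP. The eUB were at 74.3, 148, 142 and 146 (127 ± 35.5, SD, n = 4). Replicate 1 of the eUB lay within the ex-fetu UB range and the other 3 above it.

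In NP *Lhx1* was the member that rose with age. E11.5 NP libraries were at 0.117, 2.12, 1.71 and 10.9, and E12.5 NP libraries at 20.9, 25.9, 27.0 and 39.9 (28.4 ± 8.11, SD, n = 4). The ages did not overlap, and the difference was 3.14 (SE 0.59, limma adjusted p = 0.0185), or 3.27 without replicate 1 of E12.5 NP (limma adjusted p = 0.0132). That call was lost in edgeR's test on the recovered reads (adjusted p = 0.0693) and without replicate 2 or 3 of E11.5 NP (limma adjusted p = 0.0686 and 0.0738) or replicate 3 or 4 of E12.5 NP (0.058 and 0.0643). SP libraries were at 0.608 to 1.63 at E11.5 and 0.184 to 1.09 at E12.5. NP was above SP by 4.34 at E12.5 (SE 0.24, limma adjusted p = 1.5e-06), or by 4.46 and 4.32 without replicate 1 of NP or SP, with no overlap, and by 0.71 at E11.5, where the libraries overlapped and the test was not passed (limma adjusted p = 0.356). The change with age in NP differed from that in SP by −3.62 (SP minus NP, SE 0.69, limma adjusted p = 0.0094) and from that in UB by −3.18 (UB minus NP, SE 0.65, limma adjusted p = 0.0172). The latter was lost with a pseudocount of 0.1 (adjusted p = 0.07). Without replicate 1 of an E12.5 group in the term, both kept their call (−3.61 and −3.75, and −3.23 and −3.31).

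*Pax8*, a gene of the first nephron epithelium, was at 13.4, 29.6, 21.0 and 60.7 in the same E11.5 NP libraries and at 63.4, 114.8, 131 and 120 at E12.5, and the library with the most *Lhx1* at E11.5 also had the most *Pax8*. Summed early nephron markers, of which *Lhx1* is itself 1 of 5, were 152 to 329 in E11.5 NP and 297 to 471 in E12.5 NP. Summed UB markers were 36.5 to 64.3 and 35.7 to 99.1, so they overlapped between the ages. The E12.5 NP library with 99.1 had the lowest *Lhx1* of its group. The part of early nephron cells in the rise was not tested. The iNP were at 55.4, 23.1, 57.6 and 60.4 (49.1 ± 17.5, SD, n = 4), all above every E11.5 NP library and overlapping E12.5 NP only through replicate 2, which also had the lowest summed NP markers of the iNP, 632. The iSP, at 3.21 to 5.32, were above all 8 ex-fetu SP libraries.

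*Lhx1os* (ENSMUSG00000087211; chromosome 11, 84525660 to 84535831, + strand), a long non-coding RNA gene that starts 124 bases from *Lhx1* on the other strand, followed *Lhx1* across the ex-fetu groups. It was at 6.65 to 10.05 in E11.5 UB, 7.13 to 9.52 in E12.5 UB, 0.0779 to 0.923 in E11.5 NP and 2.06 to 2.88 in E12.5 NP. Its difference with age in NP was 1.43 (SE 0.20). That value is a description, since *Lhx1os* passed the filter there through the E12.5 NP libraries alone. The annotated genes do not overlap, but whether the reads were counted by strand is not given in the sources used here. The ratio of *Lhx1* to *Lhx1os* in normalised CPM was 7.10 to 9.67 in the 8 ex-fetu UB libraries and 19.2 to 20.1 in the 4 eUB libraries. In the eUB library with the low *Lhx1* of 74.3, *Lhx1os* was low too, at 3.79 against 7.04 to 7.70. In the iNP library with the low *Lhx1* of 23.1, *Lhx1os* was the highest of its group, at 6.10 against 3.09 to 4.69, and the ratio was 3.78 against 12.9 to 17.9.

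*Lhx2* (ENSMUSG00000000247; chromosome 2, 38339281 to 38369733, + strand), a factor of the early eye, forebrain and limb, was at 85.5, 81.8, 81.5 and 96.5 in iSP (86.3 ± 7.03, SD, n = 4). In iNP it was at 10.5, 8.23, 9.84 and 9.33 (9.47 ± 0.951, SD, n = 4) and in eUB at 1.34, 2.02, 2.10 and 2.73. Every ex-fetu library was at 1.03 or less except replicate 1 of E12.5 UB, the library that stood apart, at 2.46. The iSP were above E11.5 SP by a log2 difference of 5.83 and above E12.5 SP by 6.10, and the iNP above NP by 2.94 and 3.17. All 3 mESC-derived groups lay above their ex-fetu counterparts without overlap, apart from the eUB and that E12.5 UB library.

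*Lhx5* (ENSMUSG00000029595; chromosome 5, 120431699 to 120441223, + strand), a forebrain and spinal cord factor close to *Lhx1*, was a gene of the iNP, at 7.74, 9.74, 10.3 and 9.35 (9.28 ± 1.09, SD, n = 4). The iSP held 0.473 to 0.895. No other library exceeded 0.273 except again replicate 1 of E12.5 UB, at 2.46, and all 4 libraries of E12.5 SP were at 0. The log2 difference of iNP from NP was 3.27 at E11.5 and 3.33 at E12.5. Genes of neural cells also stood at other levels in these libraries. Of the 9 neural markers, *Sox1*, *Neurog1*, *Neurog2* and *Pax6* passed the filter through the iNP alone, so no count over the list is read. *Sox1*, a factor of early neural progenitors, was at 5.57 to 6.35 in iNP and at 0 to 0.0779 in E11.5 NP, and *Neurog1*, a neuronal determination factor, at 2.53 to 5.38 and at 0 in every library. *Dcx* and *Elavl4*, of young neurons, were lower in iNP, so that the summed markers came to 35.3 to 47.7 in iNP and 63.0 to 80.9 in E11.5 NP. The summed endothelial markers came to 37.8 to 63.97 and 7.45 to 20.8. Their part in the levels of *Lhx5*, *Lhx2* and *Lmx1a* in iNP was not tested. *Lhx5* shares 69 exonic bases with a gene annotated on the opposite strand, *Gm27199*, which was not in the table.

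*Lhx9* (ENSMUSG00000019230; chromosome 1, 138825186 to 138848577, − strand), a gonad factor closely related to *Lhx2*, was likewise highest in iSP, at 4.74, 4.30, 4.32 and 4.93. E11.5 SP were at 1.80, 1.34, 0.556 and 0.234 and E12.5 SP at 0.163, 0.262, 0.0478 and 0, all below iSP. The log2 differences were 1.56 and 2.32. It was too low elsewhere to pass the filter of 1 normalised CPM in 4 libraries that the tests used.

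*Lhx6* and *Lhx8*, a closely related pair from the ventral forebrain and the jaw, were low everywhere and moved in opposite directions with age in UB. *Lhx8* (ENSMUSG00000096225; chromosome 3, 154306294 to 154330659, − strand) was at 2.68, 3.58, 1.78 and 3.56 in E11.5 UB and at 0.737, 0.0473, 0 and 0 in E12.5 UB. The ages did not overlap, and the change was −1.72 (SE 0.24). *Lhx8* passed the filter there through the 4 E11.5 UB libraries alone, and was not tested when any of them was left out, so that value is a description. The change was −1.91 without the E12.5 UB library that stood apart, which held the 0.737. The eUB, at 1.56, 2.24, 2.10 and 2.34, overlapped E11.5 UB and lay above E12.5 UB. E11.5 UB was above the mean of NP and SP by 1.62 (SE 0.16), which is a description, since *Lhx8* again entered through the UB libraries alone. The change with age in UB minus that in SP was −1.31 (SE 0.29), and minus that in NP it was −1.61 (SE 0.27). Both are a description, since among ex-fetu libraries the gene reached 1 in those of E11.5 UB alone. Both passed the threshold in the main fit and neither with a pseudocount of 0.1 (limma adjusted p = 0.194 and 0.0555). These differences were −1.50 and −1.81 without replicate 1 of E12.5 UB, −1.33 without that of SP and −1.60 without that of NP.

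*Lhx6* (ENSMUSG00000026890; chromosome 2, 36081953 to 36105408, − strand) was at 0.743, 1.33, 1.44 and 1.03 in E11.5 UB and at 1.39, 2.37, 3.29 and 2.46 in E12.5 UB. The ages overlapped narrowly, and the difference of 0.64 (SE 0.20, limma adjusted p = 0.0395) passed the test in 7 of 15 alternatives. Without replicate 1 of E12.5 UB it was 0.80 (limma adjusted p = 0.0025). UB was above the mean of NP and SP by 0.49 at E11.5 (SE 0.15, limma adjusted p = 0.011) and by 1.25 at E12.5 (SE 0.14). At E11.5 the UB libraries overlapped those of SP (0.434 to 1.11) but not those of NP (0.0342 to 0.537). At E12.5 *Lhx6* passed the filter through the UB libraries alone and was not tested when any of them was left out, so that value is a description. It was 1.25 and 1.28 without replicate 1 of SP or NP. The iSP were at 2.66, 2.87, 2.88 and 2.47, above all ex-fetu SP libraries, and the iNP at 0.951 to 1.46. *Gm27953*, not in the table, shares 104 exonic bases with *Lhx6* on the same strand.

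*Isl1* (ENSMUSG00000042258; chromosome 13, 116298281 to 116309689, − strand), a factor of motor neurons and of hindlimb and cardiac mesoderm, was the member with the widest spread within a group. E11.5 SP libraries were at 94.7, 74.1, 19.3 and 4.73, and E12.5 SP libraries at 2.60, 0.363, 0.335 and 0.596. Even the lowest E11.5 library was above the highest at E12.5, and the change with age was −4.07 (SE 0.79, limma adjusted p = 0.0146). That call was lost without replicate 3 or replicate 4 of E12.5 SP (limma adjusted p = 0.054 and 0.0533). Without replicate 1 of E12.5 SP the change was −4.41, a description, since *Isl1* then passed the filter through E11.5 SP alone. E11.5 UB was at 6.01, 12.9, 0.340 and 7.15 and E11.5 NP at 7.95, 1.007, 1.36 and 0.581. NP was below SP by −3.40 at E11.5 (SE 0.87, limma adjusted p = 0.0111), although the NP library with 7.95 overlapped the SP range. E12.5 UB was at 0.778, 0.0473, 0 and 0. The change in SP was not shown to differ from that in NP (−2.70, limma adjusted p = 0.204) or in UB (1.78 for UB minus SP, limma adjusted p = 0.494). The iSP held 0.811 to 1.33, below all E11.5 SP libraries. They lay inside the range of E12.5 SP through its replicate 1 alone, and above the other libraries of that group.

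The E11.5 SP libraries with the most *Isl1* also held most of several genes of hindlimb and body wall mesenchyme. *Isl2*, the nearest relative of *Isl1*, was at 10.2, 6.27, 0.318 and 0.208 in replicates 1 to 4. *Hand2*, a factor of limb and lateral plate mesoderm, was at 47.9, 32.0, 5.72 and 2.50, and at 0.321 to 0.717 in E12.5 SP. *Tbx4*, a hindlimb factor, was at 20.7, 25.9, 0.278 and 0, and *Pitx1*, its hindlimb regulator, at 26.0, 13.5, 2.78 and 1.014. Replicates 1 and 2 stood highest for all of them. Summed SP markers of the same libraries were 1688, 1801, 2083 and 2490, and summed UB markers 302, 259, 241 and 130.5. Of the latter *Wnt11* alone was at 161, 143, 101 and 74.5, against 55.5 to 87.4 in E11.5 UB itself. The defining UB genes did not share that order, with *Epcam* at 15.05, 11.3, 23.4 and 10.01 and *Cdh1* at 10.04, 5.64, 17.7 and 5.20, both highest in replicate 3. In E12.5 SP the UB markers summed to 86.5 to 123. Whether other cells in the gate had a part in the *Isl1* level was not tested.

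**Figure D2:**
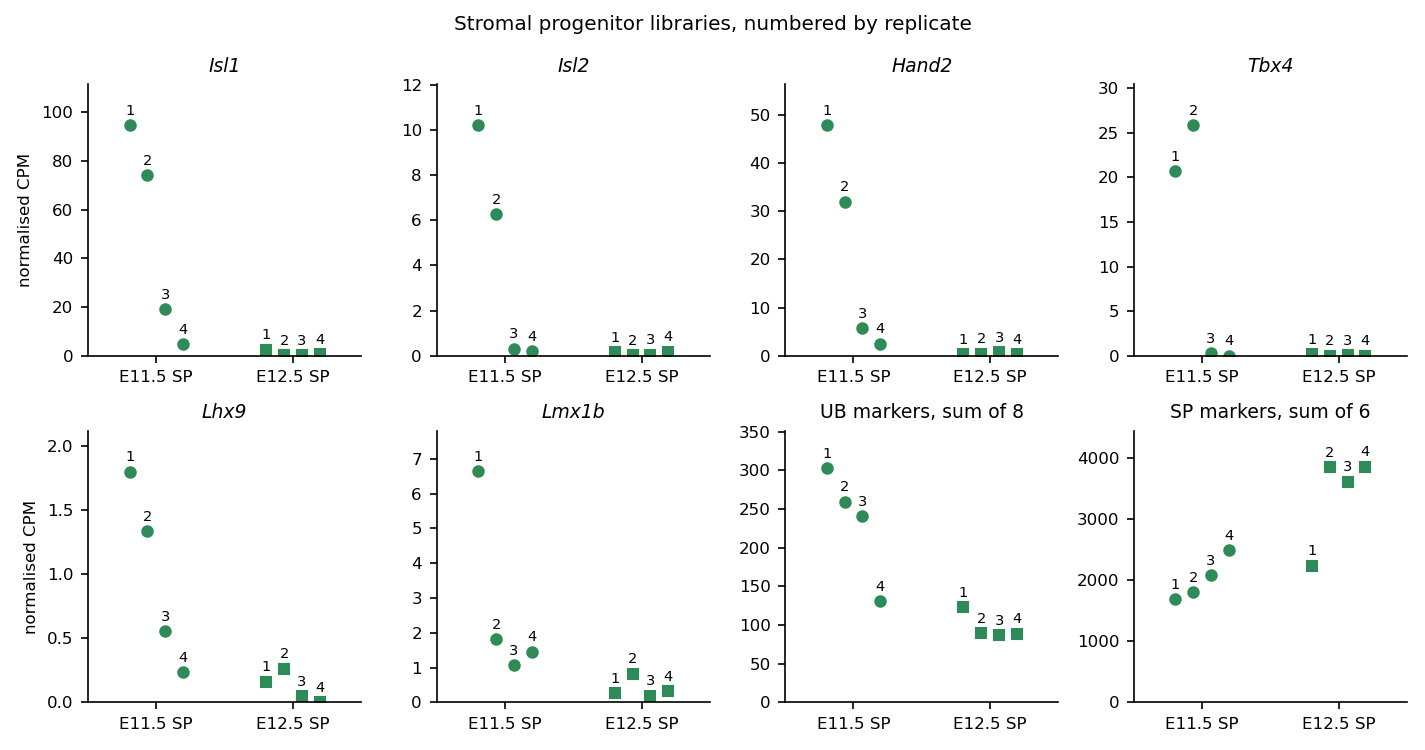
Levels of *Isl1*, *Isl2*, *Hand2*, *Tbx4*, *Lhx9* and *Lmx1b* and the summed UB and SP markers, in normalised CPM on linear axes from 0, in the 4 E11.5 SP and the 4 E12.5 SP libraries, each point numbered by its replicate. *Isl1* lay between 4.73 and 94.7 at E11.5 and at 2.60 or less at E12.5, and replicates 1 and 2 of E11.5 were the highest for all 6 genes.

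Members called among ex-fetu cells are counted here beside all genes. With age in UB, 2 of the 3 members that passed the filter were called, *Lhx6* higher and *Lhx8* lower, where 26.5% of all 13772 genes tested were called. That share was 44% without replicate 1 of E12.5 UB. In SP, 1 of 2 was called, *Isl1*, against 8.52% of all genes, and in NP 1 of 2, *Lhx1*, against 6.34%. Those shares were 21.5% and 17% without replicate 1 of E12.5 SP or of E12.5 NP, with the same number of members called. Over the 8 fits that each leave out 1 library, the share ranged from 17.2% to 44% in UB, from 2.91% to 21.5% in SP and from 1.11% to 17% in NP. Between NP and SP, *Lmx1b* and *Isl1* of 3 were called at E11.5 (43.1% of all genes) and *Lmx1b* and *Lhx1* of 2 at E12.5 (34.8% of all genes, and 57.8% in the fit blocked on replicate, where both members were called too). Between UB and the mean of NP and SP, 4 of 5 were called at E11.5 (56.4% of all genes) and 3 of 3 at E12.5 (40.3%). In the comparisons of the age effect, 1 member differed between UB and SP (4.24% of all genes), 2 between UB and NP (2.21%) and 1 between SP and NP (2.69%). The members below the filter in each comparison were not tested. Some of those tested passed only through the group where they were high. *Lhx8* did so with age in UB, in the comparisons of its age effect and between E11.5 UB and both mesenchymes. *Lhx6* did so between E12.5 UB and both mesenchymes. *Lmx1b* did so with age in SP and between NP and SP at E12.5, where *Lhx1* reached 1 in a single SP library. The counts are therefore a description, and nothing is read from them against the share of all genes.

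**Figure D3:**
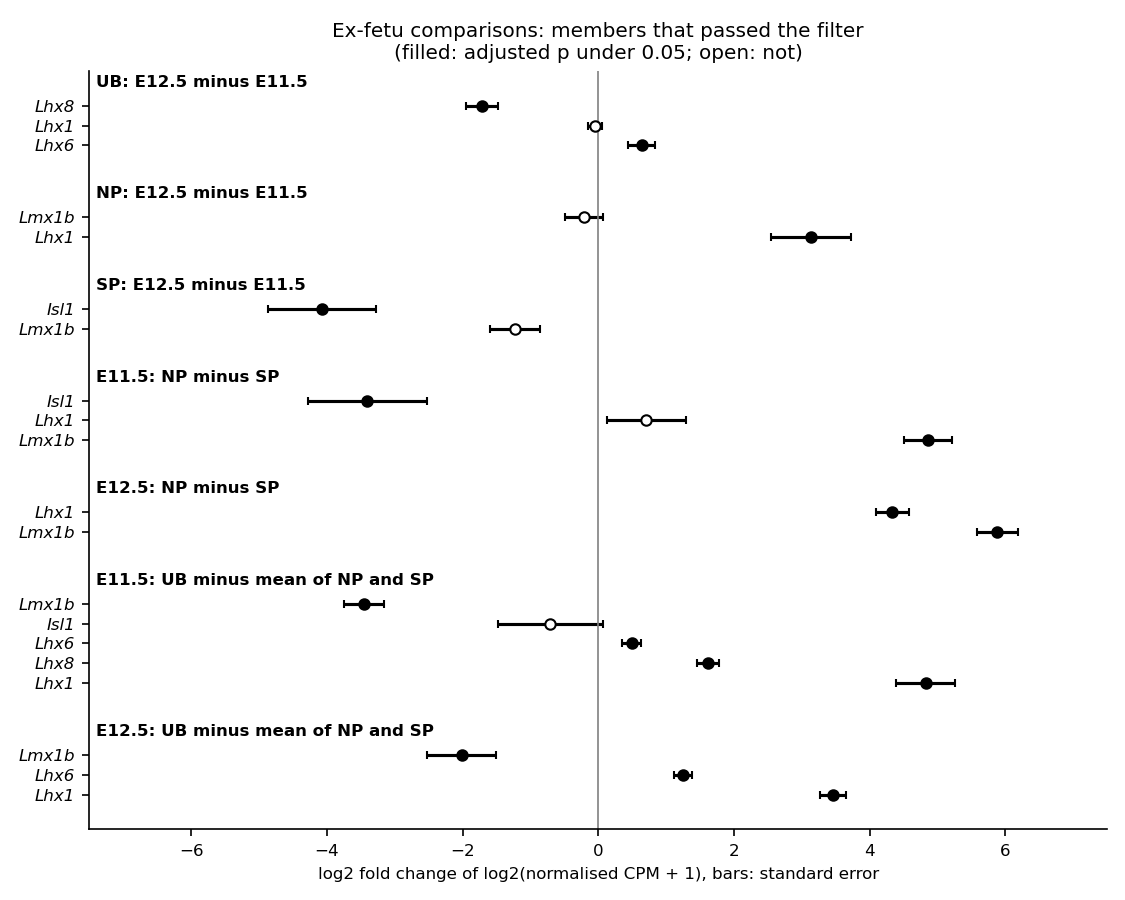
Log2 differences with standard errors (log2(value + 1) scale) of the LIM homeobox genes that passed the filter in the 7 comparisons among ex-fetu cells, filled where the limma adjusted p was under 0.05. *Lmx1b* lay at 4.86 and 5.88 between NP and SP, *Lhx1* at 4.83 and 3.46 between UB and both mesenchymes, and *Isl1* at −4.07 with age in SP. Values of a gene that passed the filter through a single group, such as *Lmx1b* at 5.88, are a description.

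The levels of the family genes were set against each other per kilobase of annotated exon. The summed level of the 12 family genes was 21.6 normalised CPM per kb in E11.5 NP, 25.0 in E12.5 NP, 21.3 in E11.5 UB, 18.9 in E12.5 UB and 15.7 in E11.5 SP, but 0.873 in E12.5 SP. *Lmx1b* made up 88.8% of it in E11.5 NP and 71.1% in E12.5 NP, where *Lhx1* came second with 27.9%. *Lhx1* made up 82.8% in E11.5 UB and 90.2% in E12.5 UB, and *Isl1* 77.8% in E11.5 SP. The iNP and iSP had sums of 21.6 and 24.8, near those of their ex-fetu counterparts at E11.5 or above, but of other genes: 55.8% was *Lhx1* and 15.97% *Lhx5* in iNP, and 79.2% *Lhx2* and 8.99% *Lmx1b* in iSP. The eUB had the highest sum, 72.8, of which *Lmx1a* gave 54.2% and *Lhx1* 43.0%.

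**Figure D4:**
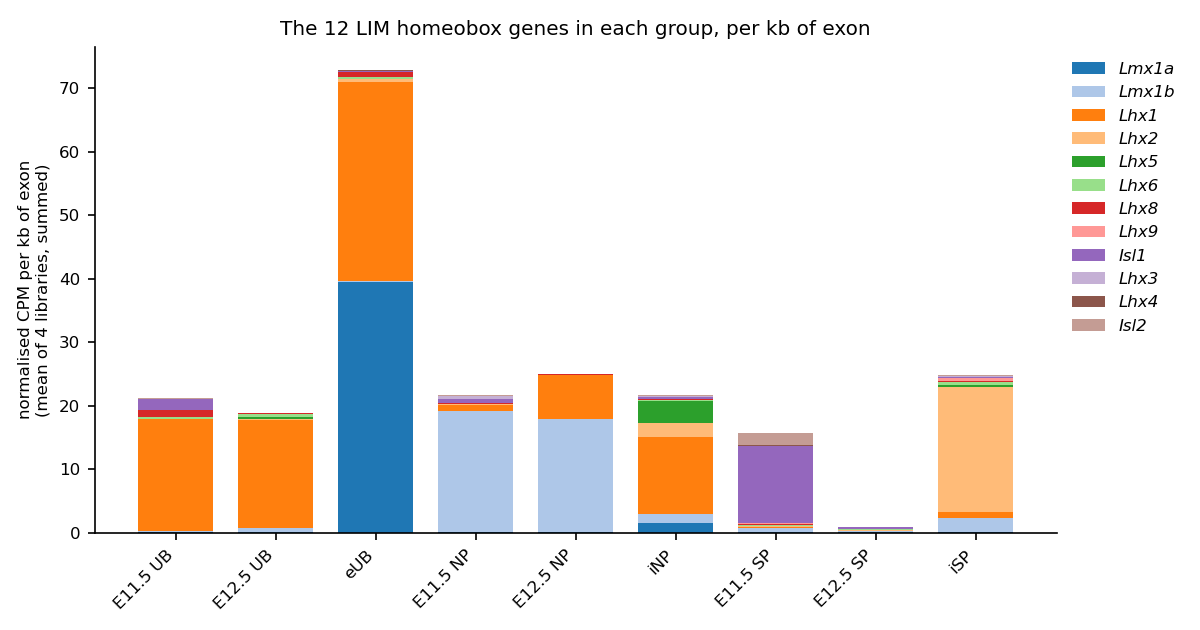
Group means of the 12 LIM homeobox genes, stacked, in normalised CPM per kilobase of exon for each of the 9 groups. The stack is 72.8 in eUB and 0.873 in E12.5 SP, and the leading gene changes from *Lmx1b* in NP to *Lhx1* in UB, *Lhx2* in iSP and *Lmx1a* in eUB.

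The mESC-derived cells were set against each ex-fetu age, and since the 2 contrasts of a lineage share the derived libraries, their values are given side by side. Of the 9 members, 5 passed the filter in eUB against E11.5 UB, of which 2 (*Lmx1a* and *Lhx2*, both higher) stood apart without overlap and 3 overlapped, where 56.1% of all genes tested stood apart in either direction. Against E12.5 UB 2 of 5 stood apart, *Lmx1a* and *Lhx8*, both higher (42.6% of all genes). In iSP all 6 members that passed the filter stood apart from E11.5 SP, of which *Isl1* alone was lower (62.2% of all genes), and 5 of 6 from E12.5 SP, all higher (58%). In iNP 5 of 5 stood apart from E11.5 NP, of which *Lmx1b* alone was lower (62.4%), and 4 of 5 from E12.5 NP, 3 higher and *Lmx1b* lower, with *Lhx1* overlapping (44%). Since the list was chosen with these contrasts known, nothing is read from those counts. *Lhx1* illustrates how the choice of age mattered, with a log2 difference in iNP of 3.85 from E11.5 and 0.71 from E12.5. *Isl1* in iSP was at −3.86 from E11.5 and 0.21 from E12.5, and *Lhx8* in eUB at −0.33 and 1.39.

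**Figure D5:**
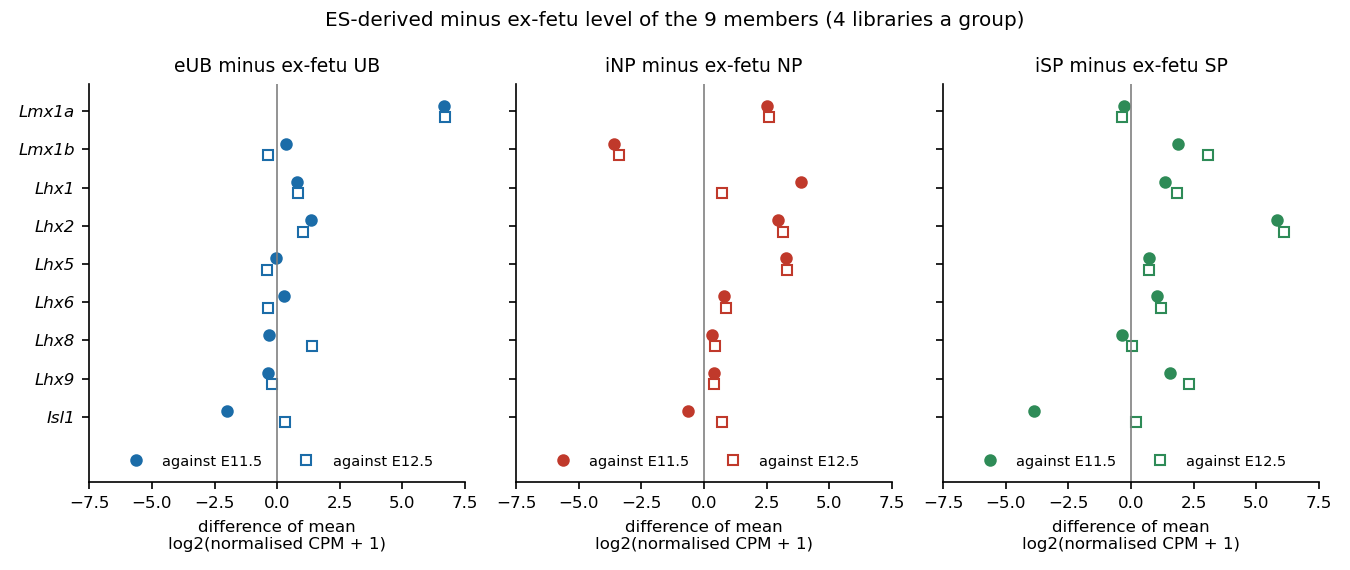
Log2 differences (log2(value + 1) scale, no test) of the members between mESC-derived and ex-fetu cells for each lineage, with separate marks for the E11.5 and E12.5 references. *Lmx1a* in eUB lies at 6.65 and 6.71 and *Lhx2* in iSP at 5.83 and 6.10, whereas *Lmx1b* is at −3.62 and −3.41 in iNP and at 1.87 and 3.10 in iSP.

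The remaining family genes were scarce. *Lhx3*, a pituitary and motor neuron factor, was at 2.18, 1.28, 1.32 and 0.444 in E11.5 NP and at 0 in all libraries of E11.5 UB and eUB. *Lhx4*, its close relative, did not exceed 0.935 in any library. *Isl2* passed 1 in replicates 1 and 2 of E11.5 SP and, at 1.09, in replicate 2 of E11.5 UB, too few libraries to be tested. None of the 3 passed the filter in any comparison.

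The LIM homeodomain proteins act with partners. *Ldb1*, the general adaptor, had group means of 181 to 305 normalised CPM, and *Ssbp3*, which stabilises it, 148 to 540. Of the 10 cofactor and regulator genes, 9 were tested between NP and SP, and 5 were lower in NP at E11.5 and 4 at E12.5, none higher (median log2 difference −0.44 and −0.38, against 0.03 and 0.05 over all genes tested). Of all genes 43.1% and 34.8% were called there. In the fit blocked on replicate 5 of 9 were lower at E12.5 and none higher, *Rlim* being added, where 57.8% of all genes were called. *Ssbp3* was at 335 in NP and 502 in SP at E11.5 (−0.58, SE 0.11, limma adjusted p = 0.0022). *Ldb1*, *Rlim* and *Ssbp4* were not called there. In UB against the mean of NP and SP, 6 were lower and 1, *Rlim*, a ubiquitin ligase that acts on the adaptors, higher at E11.5 (56.4% of all genes), and 5 were lower at E12.5 (40.3%). With age, 2 of 8 rose and 1 fell in UB (26.5%), and 1 of 9 rose in SP (8.52%) and 1 of 9 in NP (6.34%). Without replicate 1 of E12.5 UB, SP or NP these were 2 higher and 2 lower, 2 and 0, and 2 and 1, and no count between lineages at E12.5 moved. *Ldb2* entered the E11.5 comparison of UB through NP and SP alone, so the count there is a description.

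The second adaptor gene, *Ldb2*, named here after its values were seen, differed most between lineages. It was at 66.6 to 97.5 in E11.5 SP and 93.2 to 161 in E12.5 SP, at 1.78 to 4.56 and 1.72 to 3.79 in NP, and at 0.0356 to 0.718 in E11.5 UB and 0.284 to 0.918 in E12.5 UB except for replicate 1, at 11.3. NP was below SP by −4.39 at E11.5 (SE 0.21, limma adjusted p = 4.5e-07) and −5.33 at E12.5 (SE 0.23, limma adjusted p = 3.5e-07), or −5.49 and −5.51 without replicate 1 of NP or SP. The iSP were at 104 to 119, above every E11.5 SP library and within the range of E12.5 SP through replicate 1 of that group alone. Without that replicate the log2 difference of iSP from E12.5 SP was −0.453. The eUB were at 1.098 to 1.93 and the iNP at 8.30 to 14.3. Against E11.5 counterparts, 1 cofactor gene was higher and 5 lower of 9 in eUB, 4 higher and 3 lower of 10 in iSP, and 5 higher and 4 lower of 10 in iNP (60.5%, 67.6% and 64.7% of all genes were called in these contrasts). *Ldb2* and *Lmo2* in the eUB contrast and *Lmo3* in the others passed the filter through 1 group alone, so nothing is read from these counts. *Ssbp3* was at 148 in eUB and 307 in E11.5 UB (−1.05, limma), and *Rlim* at 62.9 against 140 in the iNP and E11.5 NP cells (−1.14, limma), both called.

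Of the genes that work beside *Lhx1* in the kidney, 9 were tested with age in NP, and 4 rose and none fell (6.34% of all genes were called). That count is a description. Without replicate 1 of E12.5 NP 5 of 8 rose and 1 fell. *Pax8*, a partner of *Pax2*, rose by 1.91 (SE 0.41, limma adjusted p = 0.028), whereas *Pax2* (616 at E12.5, 470 at E11.5) and *Wnt4* (144 and 139), a signal for nephron epithelium, did not pass. In SP 5 of 8 fell with age (8.52% of all genes were called), among them *Gata3*, *Osr1* and *Ret*, of which *Gata3* and *Ret* are also among the UB markers whose sum was higher in E11.5 SP. The other 2, *Wnt9b* and *Emx2*, passed through E11.5 alone, so that count is a description. In UB 2 of 10 rose and 1, *Wnt9b*, fell (26.5%), and 5 of 9 rose without replicate 1 of E12.5 UB, when *Wnt9b* alone still fell. UB was above the mean of NP and SP for 7 of 10 and below it for 3 at E11.5. At E12.5 it was above for 8 of 10 and below for 2 (56.4% and 40.3% of all genes were called in either direction). *Ret*, the GDNF receptor, was above by 5.25 and *Wnt9b*, the bud signal to NP, by 6.96 at E11.5. In eUB against E11.5 UB, 2 of 8 were higher, *Ret* among them (473 and 364), and 3 lower, among them *Wnt9b* (66.7 and 308), where 60.5% of all genes were called, while *Pax2* and *Gata3* were not called.

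Genes known from the other sites of these factors were listed for each member. Of the roof plate and midbrain genes that go with *Lmx1a*, *Msx1* was at a mean of 38.5 in iNP and 1.75 in E11.5 NP, and *Wnt1* at 10.8 and 0.048. *Wnt1* passed the filter through the iNP alone, so no count over that list is read there. In eUB, where *Lmx1a* was far higher, 2 of 5 were higher and 1 lower than in E11.5 UB (60.5% of all genes were called in either direction), and *En2*, a midbrain factor, was at 72.3 and 24.1. Of the podocyte genes around *Lmx1b*, 5 of 8 in the table could be tested between NP and SP at E11.5, of which 2 were higher and 2 lower in NP (43.1% of all genes were called). *Wt1* (359 in NP, 137 in SP) and *Cd2ap* (94.9 and 40.4) were the higher, and *Synpo*, an actin-binding protein of podocyte foot processes, was among the lower (1.59 and 57.3). Of 8 forebrain and eye genes in the table, none was testable in iSP against E11.5 SP. *Dlx2* and *Pax6* stood at means of 2.16 and 1.70 in iNP, and no gene of that list passed the filter between the ages of ex-fetu NP, so no count is read there either. Of the gonad genes, 3 of 4 were higher in iSP than in E11.5 SP, which were *Cbx2* (197 and 135), *Wt1* (164 and 137) and *Emx2* (130 and 6.31), and *Gata4* was lower (1.69 and 8.85), where 67.6% of all genes were called. The age decided the direction of the means of *Gata4* and *Wt1*. *Gata4* was at 0.334 in E12.5 SP, below the iSP, and *Emx2* and *Gata4* passed the filter through the iSP alone in that contrast. *Wt1* was at 201 in E12.5 SP, above the iSP mean, with libraries that overlapped. Without replicate 1 of E12.5 SP it was called lower in iSP. Of the limb genes, *Fgf10* fell with age in SP (10.4 at E12.5 and 18.2 at E11.5). *Hand2* was at means of 0.465 and 22.0 and passed the filter through E11.5 alone, so no count over the list is read.

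The genes whose group means on the log2(value + 1) scale were most like those of each member over the 9 groups are given with Pearson's r, as a description over 9 points that share their libraries and out of 16122 genes searched. For *Lmx1a* they were *Palmd* (0.995), *Hmx3* (0.991) and *Rasd2* (0.987), for *Lhx2* *Kpna2-ps* (0.990), *Pcdha2* (0.989) and *Zic4* (0.988), and for *Lhx5* *Lefty2*, *Myf5* (both 0.999) and *Igfbpl1* (0.994). For *Lmx1b* they were *Rspo1* (0.982), *C130021I20Rik* (0.970) and *Gnb3* (0.965), and for *Lhx1* *Gm10244* (0.983), *Thumpd3* (0.980) and *Emid1* (0.978). For *Isl1* they were *Hand1* (0.960), a relative of *Hand2*, *G530011O06Rik* (0.953) and *Evx2* (0.950). For *Lhx6* they were *Dlg1* (0.971), *Rab27a* (0.968) and *Hif3a* (0.958), for *Lhx8* *Tmem130* (0.959), *Rnf183* (0.948) and *Ihh* (0.947), and for *Lhx9* *Gm16576* (0.957), *Brinp3* (0.956) and *6330416G13Rik* (0.950).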

How the data were processed

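RNA of sorted kidney progenitors was sequenced from a stranded mRNA library on a NovaSeq. Per the labels and the methods, the authors used Cutadapt for trimming, STAR for alignment and edgeR for normalising the counts. The submitters name the build GRCh38, but the gene identifiers are mouse, and 99.5% of them were found in GENCODE vM21 (GRCm38), which gave coordinates and exon lengths. The program that counted reads and its strand setting are not given in the sources used here. The values the authors deposited are a signal, CPM after edgeR scaling, for 22761 genes in 36 libraries. Every value was a whole multiple of the value of 1 read (tolerance 0.01), so reads could be recovered, 13004352 to 52535113 a library. A second deposited table, with the same samples and the authors' means, fold changes, p-values and FDR, was not used. Replicates are separate litters or differentiation batches, and no pair was a repeated library.

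Groups came from the sample titles. The main test was limma 3.58.1 (lmFit, eBayes with trend, R 4.3.3) on log2(value + 1), on genes that reached 1 in 4 or more of the compared libraries, with Benjamini-Hochberg adjustment over all genes tested and a threshold of 0.05. Fold changes are on that scale and understate those of low genes. Interaction terms compared the change with age between cell types. Alternatives were a pseudocount of 0.1, a filter of 0.1 or none, quantile normalisation, all 36 libraries in a single fit, edgeR 4.0.16 quasi-likelihood on the recovered reads, a replicate block, and each library left out. The fits were tested on simulated data. Figures and tables were made in Python 3.11.15 (numpy 2.4.6, pandas 2.3.3, matplotlib 3.10.9).

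The members and gene lists were chosen with earlier results of these data known. All members are named. From the other lists the 2 to 4 genes with the highest mean over the libraries of a comparison are named. Other list genes were named after their values were seen. Replicate numbers of E12.5 NP and E12.5 SP pair the samples: their deviations from the group means correlated at 0.519 to 0.682 for every number. No other pair of groups met that rule. Promoter sequences are from RefSeq, and *Lhx5* had no entry.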

Additional observations from a re-analysis of the deposited data

Results flagged for a closer look

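A library far from the other 3 of its group was searched for in the 41 pairs of member and group with a library of at least 1 normalised CPM, of 81 pairs in all, by the gap of the highest or lowest library over the range of the group (Dixon's 95% critical value). Chance flags about 1 in 20 groups. Of the 41 pairs 10 were flagged, but 5 of these reached 1 in the far library alone, so the search favoured high libraries and that share is not set against chance. Replicate 1 of E12.5 UB, the library with raised NP, SP and endothelial markers, was the highest for *Lmx1b* (10.97, others 0.237 to 0.918), *Lhx2* (2.46, others 0.0483 to 0.142) and *Lhx5* (2.46, others 0). *Lmx1b* was also far from the others in E11.5 SP replicate 1 (6.64, others 1.07 to 1.82) and E11.5 UB replicate 4 (1.53, others 0.302 to 0.452). *Isl1* was highest in E11.5 NP replicate 1 (7.95, others 0.581 to 1.36) and E12.5 SP replicate 1 (2.60, others 0.335 to 0.596). *Lhx1* was lowest in iNP replicate 2 (23.1, others 55.4 to 60.4) and eUB replicate 1 (74.3, others 142 to 148), and *Lmx1a* in iNP replicate 1 (4.92, others 5.42 to 5.51).

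The change from E11.5 to E12.5 differed between cell types by an interaction term for *Lhx1* (SP minus NP −3.62, UB minus NP −3.18). The terms for *Lhx8* (UB minus SP −1.31, UB minus NP −1.61) were flagged too. They are a description, since among ex-fetu libraries *Lhx8* reached 1 normalised CPM in those of E11.5 UB alone. The difference of derived from ex-fetu cells went opposite ways in the mesenchymes for *Lmx1b*. It was 1.87 in iSP and −3.62 in iNP against E11.5, and 3.10 and −3.41 against E12.5, with no overlap of libraries, and this difference was not tested.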

How the results depend on the processing

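Of 360 alternative values of tested log2 differences, 332 kept their direction and side of the threshold, 19 lost the call, 6 gained it and 3 turned direction. The 3 were uncalled: with a library left out, *Lhx1* with age in UB ranged from −0.092 (without replicate 1 of E12.5 UB) to 0.041 (without replicate 2 of E11.5 UB) and was 0.020 without replicate 3 of E12.5 UB, and *Lmx1b* with age in NP ranged from −0.46 (without replicate 3 of E12.5 NP) to 0.021 (without replicate 1 of E12.5 NP). The number of members called with age was 1 in UB under quantile normalisation, 3 with a filter of 0.1, where *Isl1* (−2.29, adjusted p = 0.0281) was lower too, and 2 with no filter, where *Isl1* was called (adjusted p = 0.0381) and *Lhx6* was not (adjusted p = 0.0644), 2 in SP with a pseudocount of 0.1, with all 36 libraries and in edgeR, where *Lmx1b* joined *Isl1*, and 0 in NP in edgeR. With a library left out it ranged from 0 to 2 in UB, 0 to 1 in SP and 0 to 1 in NP. Between NP and SP it was 5 at E11.5 and 4 at E12.5 with a filter of 0.1 or none, since more low members were then tested, and with a library left out 2 at E11.5 and 1 to 2 at E12.5, where *Lmx1b* fell below the filter of 4 libraries without an NP library. Between UB and both mesenchymes it ranged from 2 to 4 at E11.5 and 2 to 3 at E12.5. With a pseudocount of 0.1, no member differed in its age effect between UB and SP or between UB and NP (0 and 0). With the replicate block 2 differed between UB and SP, and 2 without replicate 1 of E12.5 UB, when 3 differed between UB and NP. Leaving out replicate 1 of an E12.5 group in these terms and in the derived contrasts was added after seeing the data, and for NP and SP changed no call of a member in these terms. Where numbers did not pair the samples the block moved no other count of members beyond 1.5 times. The number of all genes called with age moved more than 1.5 times in 2 of 8 fits that leave out a library in UB (replicate 1 of either age), 7 of 8 in SP (all but replicate 4 of E11.5, 2.91% to 21.5% of genes) and 7 of 8 in NP (all but replicate 2 of E12.5, 1.11% to 17% of genes). A single fit of all 36 libraries called 2987 genes with age in SP against 1162 and 1528 in NP against 850, and the replicate block 2365 in UB against 3648 and 7961 between NP and SP at E12.5 against 4789. For the age effect compared between UB and NP, a pseudocount of 0.1 gave 210 genes against 324. Without replicate 1 of E12.5 UB, SP or NP the terms gave 1201 or 1048 genes against 632 (UB and SP), 764 or 531 against 324 (UB and NP) and, without that of SP, 820 against 388 (SP and NP). The number stayed within 1.5 times in all 45 alternatives to the contrasts of derived with ex-fetu cells. Of 239 described differences, 46 moved by more than the spread between replicates. Members below about 1 normalised CPM rest on few reads, since 3 reads are worth up to 0.223.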
